A study of Mus musculus with 4 samples.

Results

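The MHC class I presentation genes described here are H2-K1, H2-D1, B2m, Tap1, Tap2, Tapbp, Psmb8, Psmb9, Psmb10 and Nlrc5. They were taken by symbol as genes of the pathway, and each of the 10 matched 1 of the 31053 gene rows of the count tables. Single-cell RNA-seq (10x Genomics 3′ chemistry) had been run on live 7-AAD-negative CD45.2+ cells sorted from mouse lungs, and each count is a unique molecular identifier (UMI), a tag that marks 1 captured RNA molecule. All mice were C57BL/6 and carried Ift20 f/f alleles. WT mice had no Cre, whereas KO mice also carried CD4 cre, which drives Cre in developing T cells, including the precursors of CD8 T cells. Papain, a cysteine protease allergen, had been given intranasally at 25 µg on 3 days in a row and again on day 14, with the lungs taken on day 15, and control mice had received DPBS, a buffered saline. The 4 groups are written DPBS WT and DPBS KO, and Papain WT and Papain KO, and 4 values given in a row follow that order. Each group was 1 library, and the number of mice behind a library is not given in the sources used here, so no test between groups was possible and every interval below covers counting error only (reads of 1 molecule are collapsed by their UMI).

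After filtering, the libraries held 5430 to 7575 cells and 49565941 to 66721485 UMIs, with a median of 5827 to 6680.5 UMIs per cell. Between 7 and 16 cell barcodes were shared by any pair of libraries. The gene encoding CD45, Ptprc, was at 599 to 661 UMIs per 1000000 UMIs (CPM) in the pooled cells of each library. Ift20 was at 58.7 and 60.3 CPM in CD4 T-like cells of the WT libraries and at 20.3 and 19.1 CPM in those of the KO libraries, with 54.9 and 53.0 against 18.3 and 17.6 CPM in CD8 T-like cells, in the direction of the labels. The Papain KO library held Scgb1a1, a club cell transcript, at 383 CPM against 3.45 to 6.4 CPM in the others, and Hbb-bs, a hemoglobin gene, was at 74.7 and 60.9 CPM in the papain libraries against 0.135 and 0.173 CPM after DPBS.

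MHC class I molecules display short peptides from inside the cell to CD8 T cells and are read by NK cells as a sign of a normal cell. A heavy chain, encoded in C57BL/6 mice by H2-K1 or H2-D1, pairs with beta-2 microglobulin (B2m). Peptides are cut by the proteasome, in which Psmb8, Psmb9 and Psmb10 encode the immunosubunits that can replace the constitutive catalytic subunits, are pumped into the endoplasmic reticulum by the transporter of Tap1 and Tap2, and are loaded with the help of tapasin (Tapbp). Nlrc5 encodes a transactivator that drives class I transcription through the X and Y boxes of class I promoters, and interferons raise the whole pathway.

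Except for B2m on chromosome 2 and Psmb10 and Nlrc5 on chromosome 8, the members lie on chromosome 17, within the mouse histocompatibility complex (GRCm38, GENCODE M21). Tap1 (chr17:34187553-34197225, plus strand) and Psmb9 (chr17:34181987-34187764, minus strand) run in opposite directions, with gene models that overlap at their 5′ ends, and are followed by Psmb8 (chr17:34197721-34201454) and Tap2 (chr17:34203527-34216321), while H2-K1 (chr17:33996017-34000347) and H2-D1 (chr17:35262730-35267499) lie on either side of this block. Tapbp is at chr17:33915899-33929292, B2m at chr2:122147686-122153083, Psmb10 at chr8:105935735-105938444 and Nlrc5 at chr8:94434356-94527272. The 250 bases before the transcription start were read from a RefSeq promoter table (GRCm38.p6), which matched 8 of the 10 members and gave no entry for Tap2 and Nlrc5. The windows below are those of the 3 genes that carried most of the pathway's UMIs, and of the stretch between the starts of Tap1 and Psmb9. Capitals mark matches, on either strand, to AANNGAAA (an interferon regulatory factor core), GGGNNTTCC (an NF-kB core), TGACG (part of a cyclic AMP response element) and CCAAT (written ATTGG on the other strand), none of which overlapped.
H2-K1, chr17:34000348-34000597, minus strand: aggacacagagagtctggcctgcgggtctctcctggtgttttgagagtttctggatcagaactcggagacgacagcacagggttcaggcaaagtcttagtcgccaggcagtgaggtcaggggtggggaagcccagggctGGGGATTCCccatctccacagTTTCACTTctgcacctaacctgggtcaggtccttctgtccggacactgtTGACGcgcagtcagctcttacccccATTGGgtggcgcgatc
H2-D1, chr17:35262844-35263093, plus strand: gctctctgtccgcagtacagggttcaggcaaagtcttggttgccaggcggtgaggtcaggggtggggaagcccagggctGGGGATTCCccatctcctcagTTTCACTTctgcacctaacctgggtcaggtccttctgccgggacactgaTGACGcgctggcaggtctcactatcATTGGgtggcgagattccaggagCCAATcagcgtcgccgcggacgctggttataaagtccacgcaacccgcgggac
B2m, chr2:122147437-122147686, plus strand: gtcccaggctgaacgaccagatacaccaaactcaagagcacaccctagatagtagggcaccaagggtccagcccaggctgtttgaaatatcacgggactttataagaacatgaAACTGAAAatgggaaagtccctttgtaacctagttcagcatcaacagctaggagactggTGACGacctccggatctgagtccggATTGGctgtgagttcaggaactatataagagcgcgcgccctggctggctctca
Tap1 and Psmb9, chr17:34187331-34187555, plus strand, read toward Tap1: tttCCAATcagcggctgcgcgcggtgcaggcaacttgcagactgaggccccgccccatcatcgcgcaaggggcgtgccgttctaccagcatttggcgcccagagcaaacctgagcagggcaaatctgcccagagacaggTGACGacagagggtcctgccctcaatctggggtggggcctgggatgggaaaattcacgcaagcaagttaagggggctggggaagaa

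Among 32851 windows of this length in the table, AANNGAAA was found in 21.3%, GGGNNTTCC in 4.98%, TGACG in 17.8% and CCAAT in 33.8%. The H2-K1 and H2-D1 windows held all 4 motifs, and the B2m window all but GGGNNTTCC. In H2-K1, H2-D1 and B2m alike, ATTGG began 25 bases after the start of TGACG. This spacing, looked for after the matches had been seen, was present in 30 of the 32851 windows (0.0913%), which belonged to 26 genes, and H2-M3, a non-classical class I gene, was another of them. The 225 bases shared by Tap1 and Psmb9 held 1 TGACG and 1 CCAAT. The Tapbp window held 2 matches, both to CCAAT, and the windows of Psmb8 and Psmb10 held no match. These matches describe letters and not binding.

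Clusters of cells were built without the 10 genes, named from marker transcripts and grouped into classes, each written with the ending -like. Levels were computed as CPM over all cells of a class in a library. Classes were compared between libraries where each library held at least 30 cells, which left 10 classes of 287 to 7637 cells, and levels are also given for 93 Mature DC-like cells, of which 3 libraries held 17 or fewer. Because 3′ UMIs are counted once per molecule, they were not divided by transcript length, and comparisons are made for 1 gene across classes rather than between genes. H2-K1 and H2-D1 belong to a family of near-identical genes, so reads that map to several of them are lost and both levels are uncertain in absolute terms. With 4 libraries an exact paired permutation test between classes could at best give a two-sided p of 0.13 after rounding, so classes are compared by whether their ranges over the 4 libraries overlap.

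In CPM, the pathway's transcripts were highest in NK-like and Monocyte-like cells. They were lowest in Alveolar macrophage-like cells, the resident phagocytes of the airspace. CPM is a share of the UMIs of a class and not a number per cell. In DPBS WT the median cell held 18879 UMIs in Alveolar macrophage-like and 4989 in NK-like cells. The 10 genes summed to 136080 UMIs in 1411 Alveolar macrophage-like cells and 10031 UMIs in 157 NK-like cells there, which is more per cell in the former. Summed over the 10 genes, NK-like cells held 11891, 10989, 11299 and 11573 CPM. Alveolar macrophage-like cells held 4969, 4960, 5337 and 5106 CPM, below every library of every other class. The ratio of the medians was 2.27, while the libraries of a class differed by a median of 1.08-fold between the highest and the lowest. Monocyte-like cells (9910 to 11897 CPM) overlapped with NK-like cells, followed by Mature DC-like (8665 to 11944), Neutrophil-like (7327 to 9378), ILC2-like (7544 to 7987), CD4 T-like (7127 to 7642), CD8 T-like (7268 to 7539), Conventional DC-like (5909 to 6427), Interstitial macrophage-like (5348 to 6906) and B-like cells (5698 to 6029). With TMM factors in place of library totals the order at the top was reversed, with Monocyte-like above NK-like cells, and Alveolar macrophage-like cells were again lowest. In the order by CPM only the steps from CD8 T-like to Conventional DC-like cells and from B-like to Alveolar macrophage-like cells were free of overlap between neighbours.

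**Figure D1:**
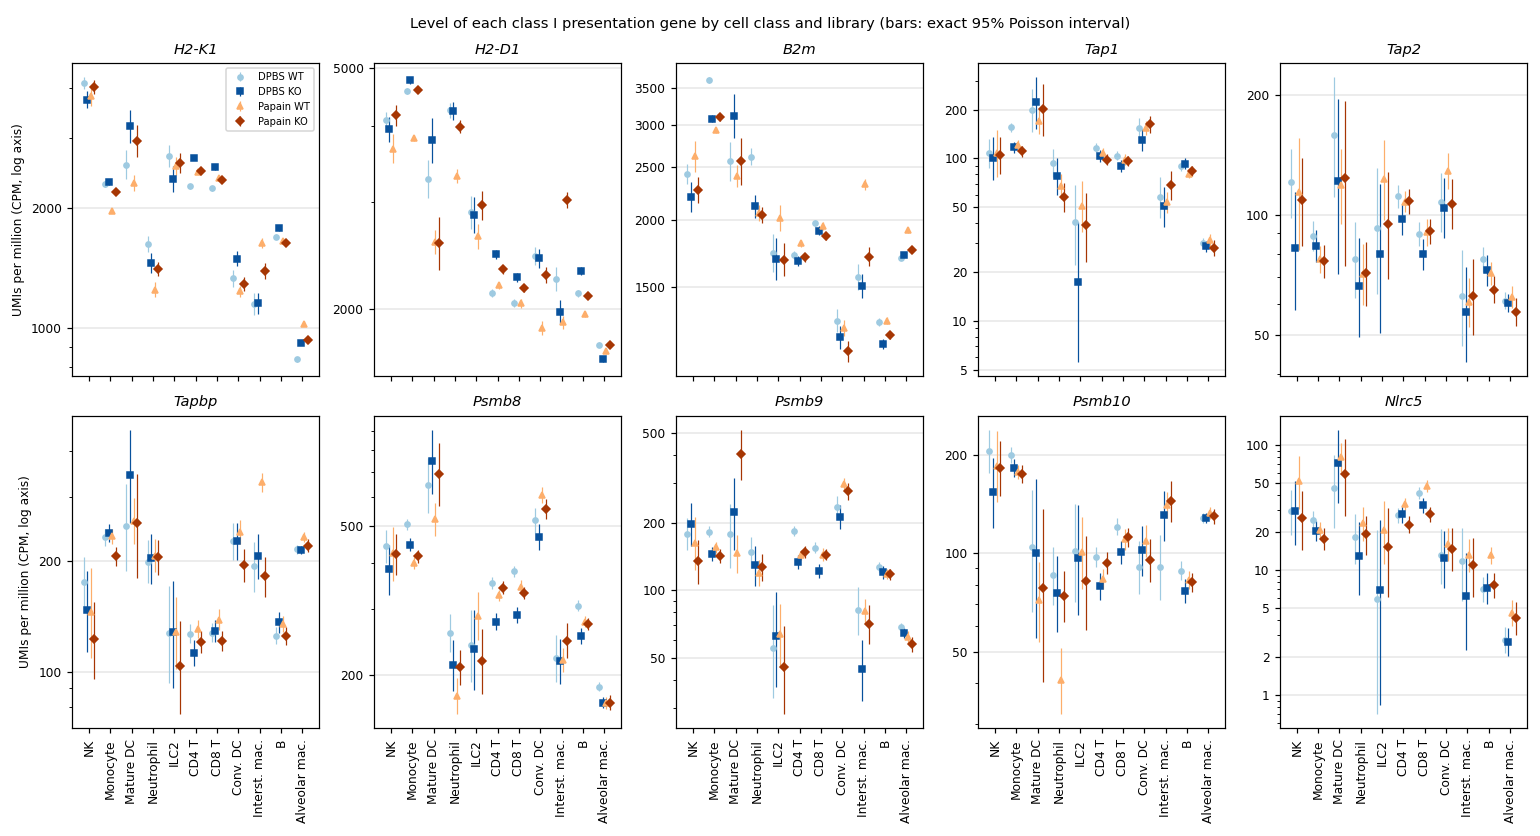
Level of each of the 10 genes (vertical axis, CPM, log scale) in 11 cell classes (horizontal axis, ordered by the summed level) for the 4 libraries, with exact 95% Poisson intervals. Alveolar macrophage-like cells have the lowest median for H2-K1, H2-D1, Tap1, Tap2, Psmb8 and Nlrc5 but not for B2m, Tapbp, Psmb9 and Psmb10.

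The heavy chains and B2m together supplied most of the UMIs, with H2-D1 at 32.7% to 35.6%, B2m at 25.9% to 28.3% and H2-K1 at 23.9% to 26.0% of the UMIs of the 10 genes in a library. H2-K1 was highest in NK-like cells, at 4107, 3729, 3808 and 4025 CPM, and lowest in Alveolar macrophage-like cells, at 836, 920, 1026 and 934 CPM. Both ranges stood clear of all other classes, and the medians differed by 4.23-fold. H2-D1 was highest in Monocyte-like cells, at 4583, 4764, 3828 and 4592 CPM, with overlapping ranges in Neutrophil-like (3312 to 4253) and NK-like cells (3677 to 4177). Its lowest class was again Alveolar macrophage-like (1653 to 1745 CPM), 2.66-fold below the Monocyte-like median.

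The balance of the 2 heavy chains separated lymphoid from myeloid cells, apart from Mature DC-like cells and 1 library of Interstitial macrophage-like cells. H2-K1 made up 52.1% to 53.8% of the H2-K1 and H2-D1 UMIs in CD8 T-like cells and 51.6% to 52.9% in CD4 T-like cells, 48.5% to 50.9% in NK-like, 45.3% to 49.2% in ILC2-like and 43.6% to 45.8% in B-like cells. It made up 35.3% to 39.9% in Conventional DC-like, 32.4% to 37.6% in Alveolar macrophage-like, 32.3% to 34.0% in Monocyte-like and 25.6% to 27.7% in Neutrophil-like cells. Mature DC-like cells (43.9% to 53.5%) lay among the lymphoid classes and, in Papain WT, so did Interstitial macrophage-like cells (46.2% there and 31.5% to 36.9% in the other libraries). Neutrophil-like cells, with an H2-D1 level close to that of monocytes, had an H2-K1 level of 1250 to 1627 CPM against 1968 to 2324 CPM in Monocyte-like cells.

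**Figure D2:**
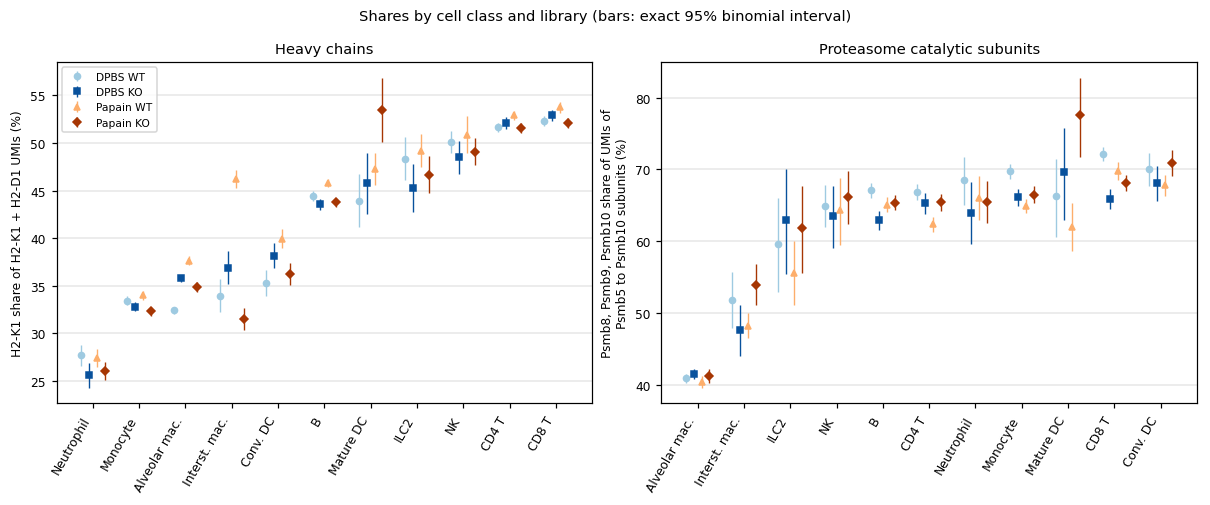
Left, H2-K1 as a percentage of H2-K1 and H2-D1 UMIs. Right, Psmb8, Psmb9 and Psmb10 as a percentage of the UMIs of those 3 genes and of Psmb5, Psmb6 and Psmb7. Points are libraries, ordered by class median, with exact 95% binomial intervals. The H2-K1 share runs from 25.6% in Neutrophil-like to 53.8% in CD8 T-like cells, and the immunosubunit share of Alveolar macrophage-like cells (40.4% to 41.5%) lies below that of every other class.

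B2m, the shared light chain, followed another order. It was highest in Monocyte-like cells, at 3623, 3074, 2927 and 3094 CPM, and lowest in Conventional DC-like cells, at 1299, 1209, 1260 and 1139 CPM, which overlapped with B-like cells (1174 to 1300). The medians of the highest and lowest class differed by 2.50-fold. Alveolar macrophage-like cells held 1695 to 1914 CPM, inside the range of ILC2-like cells (1686 to 2015) and overlapping with CD4 T-like cells (1675 to 1809), so their low heavy chain level was not matched by a low B2m level.

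Of the peptide transport and loading genes, Tap1 varied most. Tap1 was at 200, 223, 171 and 202 CPM in Mature DC-like cells, at 154, 130, 154 and 162 CPM in Conventional DC-like cells, and at 30.3, 28.7, 31.4 and 28.1 CPM in Alveolar macrophage-like cells, a 6.81-fold difference of medians between the first and the last. The range of ILC2-like cells (17.3 to 51.3 CPM) overlapped with that of Alveolar macrophage-like cells. The ILC2-like class was 1 cluster with the mast cell genes Cma1, Tpsb2 and Cpa3 among its leading genes, and its summed basophil markers were at 183, 20.8, 80.2 and 825 CPM against 3732 to 4612 CPM of ILC2 markers. Their part in its values was not tested. Tap2, the partner subunit of the transporter, spanned 2.02-fold, from a median of 123 CPM in Mature DC-like to 60.7 CPM in Alveolar macrophage-like cells, and ILC2-like cells (79.8 to 123 CPM) were not low for it. Tapbp spanned 2.07-fold and ran against the lymphoid and myeloid order of H2-K1, with 206 to 239 CPM in Monocyte-like and 215 to 233 CPM in Alveolar macrophage-like cells against 113 to 131 CPM in CD4 T-like cells.

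The immunosubunits were read beside the constitutive subunits they replace, Psmb5, Psmb6 and Psmb7. The 3 immunosubunits made up 40.4% to 41.5% of the UMIs of all 6 genes in Alveolar macrophage-like cells, 47.6% to 54.0% in Interstitial macrophage-like, 55.6% to 63.0% in ILC2-like and between 62.0% and 77.6% in the other 8 classes. The pairs behaved unequally. Psmb8 made up 43.0% to 44.4% of Psmb8 and Psmb5 in Alveolar macrophage-like cells and from 67.6% upward outside the macrophage classes, and Psmb9 made up 23.2% to 25.2% of Psmb9 and Psmb6 there against 47.0% to 52.1% in NK-like and 67.3% to 71.9% in Neutrophil-like cells. Psmb10 showed no such deficit, with 53.2% to 55.7% of Psmb10 and Psmb7 in Alveolar macrophage-like cells, overlapping with CD4 T-like (50.8% to 57.5%) and Neutrophil-like cells (43.8% to 54.3%). In CPM, Psmb8 had its lowest median in Alveolar macrophage-like cells (169 to 187 CPM, overlapping with Neutrophil-like cells at 176 to 260) and reached 469 to 606 CPM in Conventional DC-like and 522 to 747 CPM in Mature DC-like cells, whereas Psmb10 had its lowest median in Neutrophil-like cells (40.9 to 85.7 CPM) and its highest in NK-like cells (154 to 206 CPM). Psmb9 was highest by median in Conventional DC-like cells (212 to 296 CPM) and lowest in ILC2-like cells (45.4 to 64.1 CPM), a 4.34-fold span.

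Nlrc5, the transactivator, had the fewest UMIs of the 10 genes and the widest range between classes. Its median was 65.2 CPM in Mature DC-like cells, where it rested on 9 to 58 UMIs a library, and 3.46 CPM in Alveolar macrophage-like cells, an 18.9-fold difference. In Alveolar macrophage-like cells the level was 2.77, 2.66, 4.55 and 4.14 CPM, from 45 to 76 UMIs, and no library of another class was as low. CD8 T-like cells held 41.3, 32.8, 47.0 and 27.9 CPM and CD4 T-like cells 27.3, 28.1, 33.7 and 23.05 CPM, and B-like cells had the next lowest median after Alveolar macrophage-like cells, at 7.04, 7.18, 13.2 and 7.57 CPM. The B-like and Alveolar macrophage-like ranges did not overlap.

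Within classes, the clusters differed in ways that the class levels hide. Among monocytes, the cluster led by Cd300e, Eno3, Ace and Treml4, genes of patrolling monocytes, held 14178, 13325, 12859 and 13176 CPM of the 10 genes summed, the highest of all clusters. The cluster led by F13a1, Ifitm3 and Plac8 held 10640, 10186, 8437 and 9624 CPM. B2m (3850 to 4556 against 2372 to 3109 CPM) and H2-K1 (2760 to 3001 against 1573 to 1927 CPM) separated these clusters without overlap, while Psmb8 (326 to 452 against 435 to 535 CPM) did not.

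Among conventional DCs, the cluster led by Ckb, Cadm1 and Cst3 (131 cells) and the cluster led by Mgl2, Cd209a and Tnip3 (257 cells) overlapped in the summed level, at 5770 to 6288 and 5839 to 6660 CPM. They did not overlap in Psmb8, Psmb9, Tap1 and Tap2. Psmb9 was at 375, 303, 418 and 424 CPM in the first and 166, 143, 246 and 182 CPM in the second cluster. Tap2 was at 140 to 196 against 73.4 to 102 CPM and Tap1 at 167 to 192 against 99.2 to 148 CPM. Cadm1 marks the type of DC that is specialised in presenting taken-up antigen on class I.

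Among T cells, a cluster led by Tnfrsf4, Ctla4 and Ikzf2, with Foxp3 among its leading genes, genes of regulatory T cells, held 36, 14, 117 and 34 cells. It had 11342, 11930, 10884 and 11989 CPM of the 10 genes summed. The largest T cluster, which was led by Cd3d, Igfbp4 and Lef1, had 7282, 7538, 6843 and 7385 CPM. A cluster of 75 cells led by Ccl5 and Cd8b1, with the cytotoxic granule gene Gzmb among its leading genes, held Nlrc5 at 91.1, 91.1, 120 and 74.96 CPM from 6 to 24 UMIs a library. A cluster of 35 cells with the interferon-induced Ifit3 and Ifit1 among its leading genes held 117 CPM of Nlrc5, 813 of Psmb8 and 273 of Psmb10 over all libraries pooled, the highest of any cluster for these 3 genes. It held only 5 to 13 cells a library, too few to compare conditions.

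**Figure D3:**
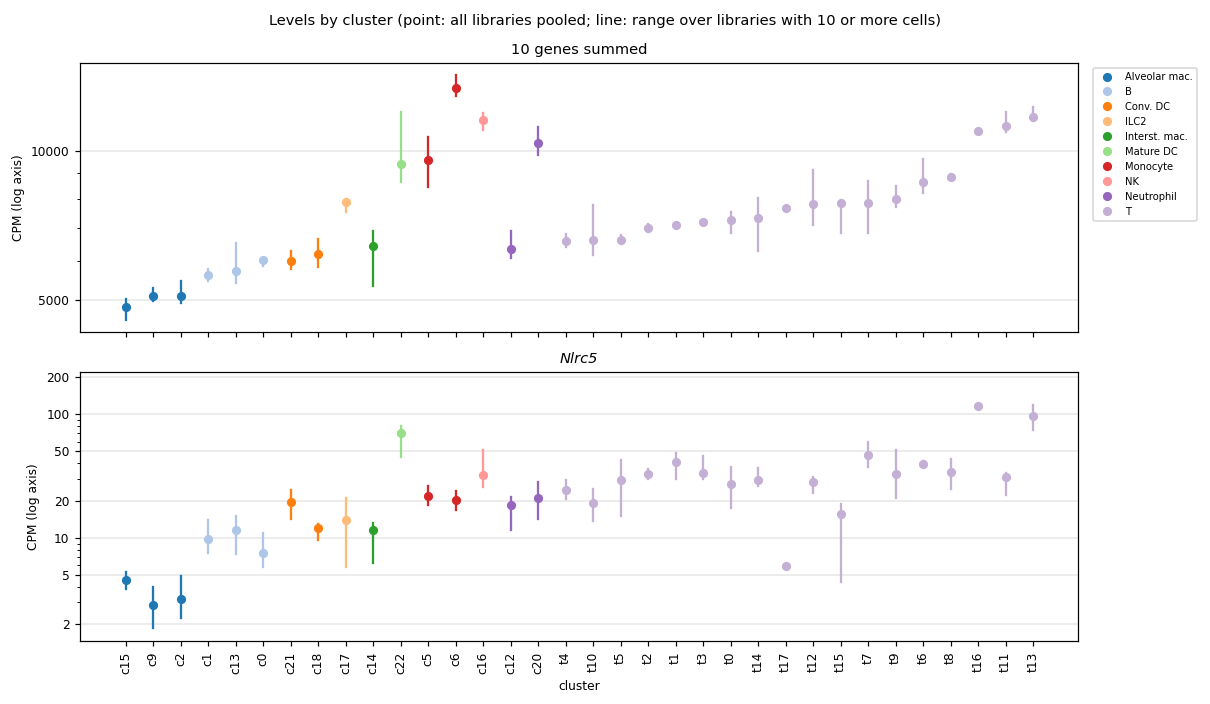
Summed level of the 10 genes (top) and level of Nlrc5 (bottom) in CPM (log scale) by cluster, coloured by class. Points pool all libraries and lines span the libraries with 10 or more cells. The monocyte cluster c6 is highest in the sum (13350 CPM pooled), and 3 alveolar macrophage clusters are lowest for Nlrc5.

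Across the 40 combinations of 10 classes and 4 libraries, the levels of the members did not move as 1 block. As a description over points that share libraries and depth, log2(CPM + 1) of Tap1 and Psmb9, which share the stretch printed above, had a Pearson r of 0.89, Tap1 and Psmb8 0.84, and Psmb8 and Psmb9 0.82. B2m had an r of 0.69 with H2-D1 and 0.00 with Tap2, and Tapbp had an r of -0.59 with H2-K1. Nlrc5 had its highest r with H2-K1 (0.71) and Tap1 (0.67). Outside the pathway, and among genes with a mean of at least 50 CPM over these points, those whose levels most resembled the summed members were Ppp1r12a (r = 0.88), Ccnd3 (0.87), Itga4 (0.83), Ifngr1 (0.81) and Bin2 (0.81).

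Papain was compared with DPBS within each genotype, to see whether allergen exposure went with a change in class I presentation genes. Values were compared for a gene and class with at least 200 UMIs over both libraries, and a log2 ratio of at least 0.3 in size was counted as past the fold. In WT mice, 7 of 85 member values were higher and 11 lower past the fold, against 16.3% higher and 9.06% lower among 44712 values of all genes. In KO mice, 4 of 76 were higher and 0 lower, against 8.35% and 5.95% of 38349 values. The median log2 ratio of the members was -0.06 in WT and -0.01 in KO, and that of all genes 0.02 and 0.01.

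Of the lower values in WT mice, 9 of 11 lay in Monocyte-like and Neutrophil-like cells. In Monocyte-like cells 3 of 10 members were lower past the fold in WT and 0 of 10 in KO. Of all genes compared in this class, 7.23% were lower past the fold in WT and 5.5% in KO. There, B2m was at 3623 CPM in DPBS WT and 2927 in Papain WT, a log2 ratio of -0.31 (95% counting interval -0.33 to -0.28), Tap1 at 155 and 122 CPM (-0.35, -0.48 to -0.22) and Psmb8 at 506 and 399 CPM (-0.34, -0.41 to -0.27). In the summed level, both monocyte clusters were lower in Papain WT than in DPBS WT, by log2 ratios of -0.33 in the cluster led by F13a1 and -0.14 in the cluster led by Cd300e. In KO mice the Monocyte-like log2 ratio of the summed level was -0.05 against -0.26 in WT, a difference that was not tested.

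In Neutrophil-like cells, 6 of 8 compared members were lower past the fold in Papain WT than in DPBS WT and 0 of 6 in Papain KO than in DPBS KO. Of all genes compared in this class, 24.1% were lower past the fold in WT and 7.91% in KO. H2-K1 was at 1627 CPM in DPBS WT and 1250 in Papain WT (-0.38, -0.47 to -0.29), H2-D1 at 4253 and 3312 (-0.36, -0.42 to -0.30), and Psmb8 at 260 and 176 (-0.56, -0.79 to -0.32). Psmb9, the smallest of the 6 ratios (-0.30), had an interval that included 0. The class has 2 clusters of unequal class I level, and their mix differed between libraries. The smaller cluster, c20, held 11148, 10137, 9818 and 10317 CPM of the 10 genes summed, against 6090 to 6889 CPM in the larger cluster, c12. It was 31.8% of the class in DPBS WT (exact binomial interval 25.0% to 39.2%) and 15.9% in Papain WT (12.5% to 19.8%), and 27.3% and 22.4% in the KO libraries. Its summed monocyte markers were at 3524 to 3857 CPM, near those of the monocyte clusters (3355 to 5188) and above c12 (1204 to 1458). Its neutrophil markers at 23160 to 29530 CPM were below those of c12 (86894 to 104221). The interstitial macrophage markers were at 2080 to 2911 CPM in c20 and 137 to 195 in c12. The alveolar macrophage markers were at 788 to 1063 CPM in c20 and 117 to 252 in c12. The median UMIs per cell were 10609.5 in c20 and 3205.5 in c12. The part of these differences in the class I level of c20 was not tested. Within c12 alone B2m was at 1444 CPM in DPBS WT and 1504 in Papain WT, a log2 ratio of 0.06 against -0.35 for the whole class, while H2-D1 had a ratio of -0.29 and Psmb8 of -0.36 there. With TMM factors the whole-class ratios were -0.22 for H2-K1 and -0.20 for H2-D1, short of the fold. Within the clusters, 2 of 6 members in c12 and 1 of 5 in c20 were lower past the fold, against 11.6% and 10.4% of all genes compared in these clusters.

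In lymphoid classes few values passed the fold. Psmb9 was at 183 CPM in DPBS WT and 144 in Papain WT in CD4 T-like cells (-0.35, -0.46 to -0.24), and Psmb8 was at 278 CPM in DPBS KO and 343 in Papain KO (0.30, 0.21 to 0.40). In Conventional DC-like cells, Psmb9 was higher after papain in both genotypes, by 0.34 (0.15 to 0.53) in WT and 0.38 (0.17 to 0.60) in KO, where it was 0.09 with cells gated on markers, and H2-D1 was lower in WT by a log2 ratio of -0.40 (-0.46 to -0.33). None of the 9 members compared in Alveolar macrophage-like cells and none of the 10 in CD8 T-like cells passed the fold in either genotype. Among all genes, 6.1% were higher and 11.4% lower in WT and 5.67% and 5.69% in KO in Alveolar macrophage-like cells, with 19.1% higher and 3.51% lower in WT and 8.26% and 4.99% in KO in CD8 T-like cells.

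The Interstitial macrophage-like class accounted for 4 of the 7 higher values in WT (H2-K1 by 0.51, B2m by 0.57, Tapbp by 0.76 and Psmb10 by 0.63) and for 1 of the 4 in KO (H2-D1 by 0.61). In this class 29% of all genes were higher past the fold in WT and 18.2% in KO. Its single cluster did not hold like cells in all libraries. The summed alveolar macrophage markers were at 1810, 21272, 38627 and 853 CPM, the interstitial macrophage markers at 8173, 7491, 4303 and 8704 CPM, and the median UMIs per cell were 10710, 3203, 8353 and 16749. Their part in these ratios was not tested. In KO against WT after papain the class held 4 of the 9 values past the fold, with H2-D1 higher by 0.67 and Tap1 by 0.36, and B2m (-0.45) and Tapbp (-0.85) lower, while 21.6% of all its genes were higher and 23.5% lower. Without this class, papain against DPBS in WT had 3 of 76 values higher and 11 lower, against 15.4% and 8.40% of all genes. KO against WT after papain then had 0 of 74 higher and 5 lower, against 6.68% and 12.01% of all genes.

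**Figure D4:**
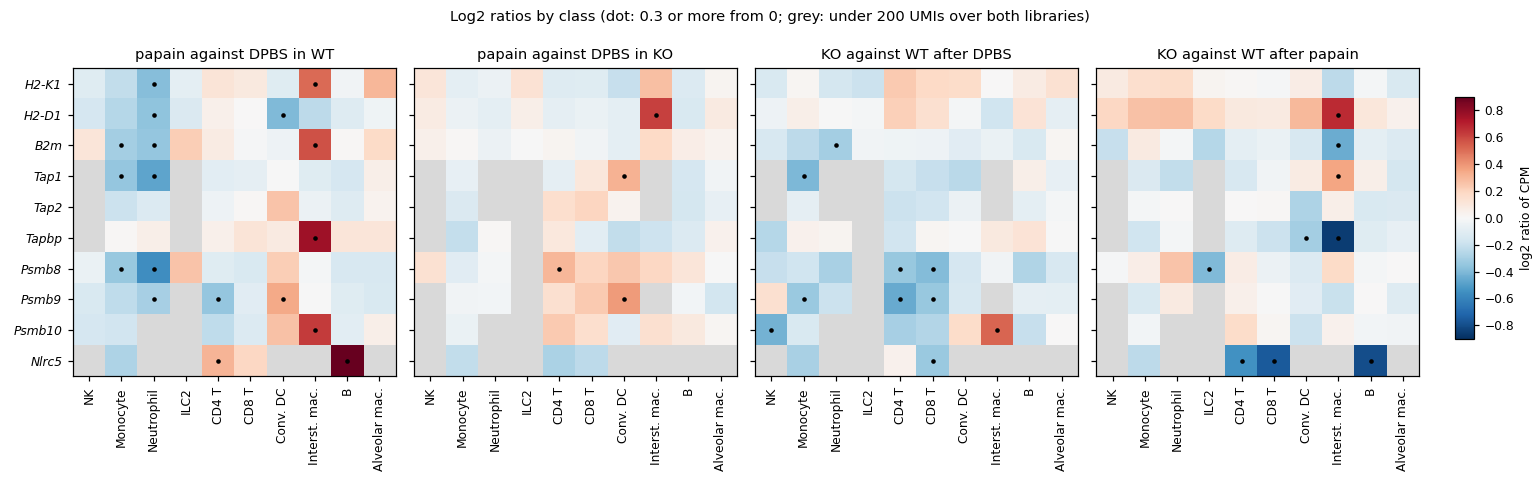
Log2 ratio of CPM for each gene (rows) and class (columns) in the 4 comparisons. Dots mark ratios of at least 0.3 in size, and grey marks values under 200 UMIs over both libraries. The lower values after papain in WT gather in Neutrophil-like and Monocyte-like cells, and Nlrc5 is lower in KO than in WT after papain in both T classes and in B-like cells.

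KO was compared with WT within each treatment, to see whether loss of Ift20 in T cells went with a change of the pathway in T cells or in other classes. After DPBS, 1 of 79 member values was higher and 9 lower past the fold, against 9.82% higher and 9.88% lower of 38458 values of all genes. After papain, 2 of 83 were higher and 7 lower, against 7.78% and 12.9% of 44181 values. The member medians were -0.08 and -0.02, and those of all genes 0.00 and -0.01.

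After DPBS, Psmb8 and Psmb9 were lower in KO than in WT past the fold in both T classes, though unequally among the T clusters. Psmb8 ratios below 0 were not confined to T cells, though only the T classes passed the fold. The Psmb8 ratio was below 0 in each of the 9 classes compared (median -0.20, from -0.39 to -0.03) and in each of 3 B-like clusters (-0.25 to -0.15). All these ratios compare the same 2 libraries, so their shared sign is not independent evidence. Shares of all genes with 1 sign, or past the fold in as many clusters, were not computed, here or for the T clusters below. For Psmb9 the ratios over 8 classes ran from -0.45 to 0.14, with a median of -0.17. In CD4 T-like cells 2 of 10 members were lower past the fold, a count near the share of all genes compared in the class, 17.8%. In CD8 T-like cells 3 of 10 were lower against 10.6%, and in Monocyte-like cells 2 of 10 against 11.6%. Psmb8 was at 353 CPM in DPBS WT and 278 in DPBS KO in CD4 T-like cells (-0.34, -0.44 to -0.25) and at 379 and 290 CPM in CD8 T-like cells (-0.39, -0.47 to -0.30). Psmb9 was at 183 and 134 CPM in CD4 T-like (-0.45, -0.58 to -0.32) and at 155 and 122 CPM in CD8 T-like cells (-0.34, -0.48 to -0.21). Psmb8 of CD4 T-like cells fell short of the fold with the mean CPM of each cell (-0.27), with cells thinned to 2000 UMIs (-0.24), with TMM factors (-0.29) and without dividing clusters (-0.26). Among the T clusters with at least 30 cells in each library, Psmb8 was lower past the fold in 3 of 10 (-0.53 to -0.03) and Psmb9 in 3 of 7 that could be compared (-0.51 to -0.03), and each ratio was below 0. In the largest, t0, led by Cd3d, Igfbp4 and Lef1, Psmb8 was at 217 CPM in DPBS WT and 212 in DPBS KO (-0.03, -0.21 to 0.16), Psmb9 had a ratio of -0.20 with an interval that included 0, and 0 of 9 members passed the fold in this direction, against 6.93% of all genes. In t5, led by Cd8b1, Cd3d and Cd3e and singled out after its values had been seen, 5 of 9 members were lower past the fold, against 13.7% of all genes. These were Tap2 (-0.63), Tap1 (-0.59), Psmb8 (-0.53), Psmb9 (-0.51) and Psmb10 (-0.48). The mix of T clusters differed between the libraries, with t0 at 14.0% of the T cells in DPBS WT and 24.4% in DPBS KO, t1 at 19.6% and 12.7%, and t2 at 16.1% and 8.03%. Its part in the class values was not tested. Monocyte-like cells, in which Ift20 was at 52.4 and 48.2 CPM in the DPBS libraries, also had lower values. There, Psmb9 was at 183 and 145 CPM (-0.33, -0.47 to -0.20) and Tap1 at 155 and 117 CPM (-0.41, -0.55 to -0.26). The heavy chains differed in the other direction in CD4 T-like cells, where H2-K1 was at 2267 CPM in DPBS WT and 2674 in DPBS KO, a ratio short of the fold. The remaining lower values after DPBS were Nlrc5 in CD8 T-like cells, Psmb10 in NK-like cells (-0.42) and B2m in Neutrophil-like cells (-0.30), and the 1 higher value was Psmb10 in Interstitial macrophage-like cells (0.52). After papain, Psmb8 and Psmb9 did not pass the fold in any T class, with Psmb8 at 328 CPM in Papain WT and 343 in Papain KO in CD4 T-like cells.

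Over 11 classes, DPBS WT was the highest library for Psmb8 in 7 and the lowest in 0, and the same held for Psmb9. For Psmb10 it was the highest in 8 and the lowest in 3, for Tap2 the highest in 6 and the lowest in 0, and for Tap1 the highest in 4 and the lowest in 0. Among 12000 genes with at least 200 UMIs, DPBS WT was the highest library in 7 or more classes for 3.23% and in 8 or more for 1.07%. Shares over all genes were not computed for 6 or 4 classes or for the lowest library. The Tap2 and Tap1 counts, and the counts of lowest, therefore have no background and are not read as a pattern.

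Nlrc5 had its highest level in Papain WT in 10 of 11 classes, the exception being Monocyte-like cells, where DPBS WT was highest. Among the 12000 genes, 0.133% were highest in Papain WT in 10 or more classes, though Nlrc5 was 1 of 10 members ranked in this way. Many of these ranks rested on few UMIs. Of the 10 classes compared between libraries, Nlrc5 reached 200 UMIs over both WT libraries in 4. There, 2 were higher past the fold in Papain WT than in DPBS WT, and the log2 ratios ran from -0.28 to 0.90. In B-like cells Nlrc5 was at 7.04, 7.18, 13.2 and 7.57 CPM, from 72, 49, 160 and 77 UMIs, so that Papain WT stood above 3 libraries that differed little among themselves. The log2 ratio of Papain WT to DPBS WT was 0.90 (0.49 to 1.32) and that of Papain KO to Papain WT was -0.80 (-1.21 to -0.40). The mix of the 3 B-like clusters differed between libraries, with c0 at 35.3%, 66.4%, 47.6% and 54.5% of the class and c13 at 4.3%, 5.07%, 12.04% and 8.9%. Within c0, Nlrc5 was at 6.04, 5.81, 10.98 and 6.58 CPM, within c1 at 7.50, 8.81, 14.0 and 9.16 CPM, and within c13 at 7.87, 11.4, 15.1 and 7.37 CPM, so that Papain WT was highest in each, from 8 to 54 UMIs a library. In CD8 T-like cells KO was below WT by -0.75 (-1.01 to -0.50) after papain and by -0.33 (-0.59 to -0.08) after DPBS. In CD4 T-like cells it was below WT by -0.55 (-0.83 to -0.27) after papain, and after DPBS the levels were 27.3 and 28.1 CPM. The 3 ratios of KO to WT after papain stayed past the fold in the alternatives in which they could be compared and the fold was 0.3, from -0.84 to -0.66 in B-like, -0.73 to -0.45 in CD4 T-like and -0.81 to -0.70 in CD8 T-like cells. With cells thinned to 2000 UMIs they could not be compared, since Nlrc5 then held 28 to 102 UMIs a library after papain in these classes. Among T clusters with at least 30 cells in each library, Papain WT was highest for Nlrc5 except in t1, t2, t6 and t7. In t7 it was at 60.2 CPM in DPBS WT and 37.6 in Papain WT. The cluster ratios of KO to WT after papain ran from -1.49 in t5 to 0.13 in t6, each from under 200 UMIs, and were above 0 in t6 and t7. The part of the cluster mix in the T class ratios was not tested. H2-K1, a gene that NLRC5 is known to drive, was at 1657 CPM in Papain WT B-like cells against 1636 to 1784 in the other libraries. Of the 10 members in B-like cells, 1, Nlrc5 itself, was higher past the fold in Papain WT than in DPBS WT and 0 lower. Among all genes of the class, 16.4% were higher and 6.88% lower. Whether the Nlrc5 level bears on the other members was not tested.

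**Figure D5:**
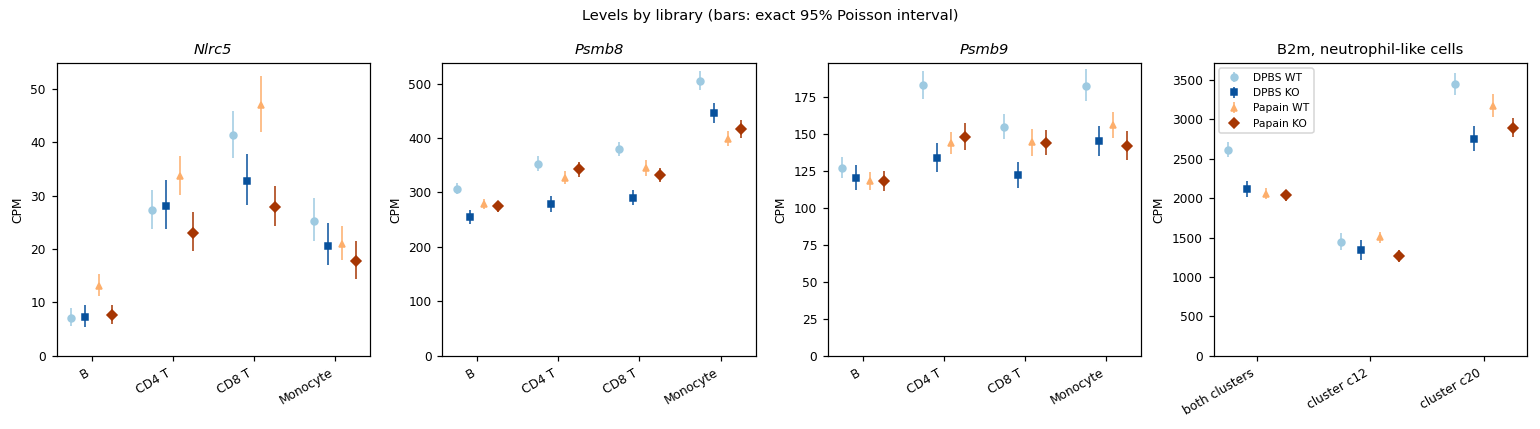
Level (CPM) of Nlrc5, Psmb8 and Psmb9 in B-like, CD4 T-like, CD8 T-like and Monocyte-like cells, and of B2m in Neutrophil-like cells and their 2 clusters, in the 4 libraries with exact 95% Poisson intervals. Nlrc5 of B-like cells is at 13.2 CPM in Papain WT and at 7.04 to 7.57 in the other libraries, and B2m of the whole Neutrophil-like class is higher in DPBS WT although cluster c12 is not.

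The H2-K1 share of the heavy chains was highest in Papain WT in 9 of 11 classes. In Alveolar macrophage-like cells it was 32.4%, 35.8%, 37.6% and 34.9%, and in Conventional DC-like cells 35.3%, 38.2%, 39.9% and 36.2%. In other classes the next library was closer. Papain WT was at 52.9% against 52.1% in DPBS KO in CD4 T-like cells and 53.8% against 52.9% in CD8 T-like cells. In Monocyte-like cells it was at 34.0% against 33.4% in DPBS WT. H2-D1 itself was the lowest in Papain WT in 7 of the 11 classes and the highest there in 0. Among 12000 genes, 5.57% were highest in Papain WT in 7 or more classes. The matching shares for pairs of genes and for the lowest library were not computed, so these counts have no background.

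The other genes of the pathway and the interferon-inducible genes were read from lists, each as its count past the fold and its median log2 ratio beside the background percentages above. The constitutive catalytic subunits had 4 of 23 values higher and 1 lower after papain in WT (median 0.05), and 2 of 23 higher and 2 lower in KO against WT after papain (median -0.07). The proteasome activator genes Psme1, Psme2 and Psme3 had 3 of 26 values higher and 5 lower after papain in WT. Psme3 was lower in KO than in WT after papain in 4 of 7 classes, with a median log2 ratio of -0.34. The trimming and loading genes (Erap1, Calr, Canx, Pdia3 and Tapbpl) had 8 of 38 values higher and 4 lower after papain in WT, with a median of 0.07, and 3 higher and 8 lower of 38 in KO against WT after papain, with a median of -0.07. The other class I chains, which share sequence with each other and with H2-K1 and H2-D1, had 4 of 55 higher and 10 lower after papain in WT (median -0.11), and 7 of 56 higher and 2 lower in KO against WT after papain (median 0.11).

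The regulators had 2 of 32 values higher and 6 lower after papain in WT (median -0.07). Rfx5, a subunit of the factor that binds the X box, was lower after papain in WT in both classes in which it could be compared (median -0.41). The 8 genes induced mainly by type I interferon had 18 of 28 values lower past the fold and 1 higher in KO against WT after DPBS, with a median of -0.43, in the comparison where 9.88% of all values were lower. Bst2, an antiviral membrane protein, was lower in 5 of 7 classes (median -0.44), and Rtp4 in 3 of 3 (median -0.83). Ifit3 was lower in both classes in which it could be compared (median -1.67), and so were Oasl2 (-0.72) and Rsad2 (-0.33). After papain, 13 of 29 values were lower and 3 higher in KO against WT (median -0.28). The 8 genes induced mainly by interferon gamma had 8 of 23 values lower and 3 higher after DPBS, with a median of -0.11, and Ciita, the transactivator of MHC class II, was lower in 3 of 3 classes (median -0.42). Among its other genes, Socs1, an inhibitor of cytokine signalling, was higher in 2 of 4 classes. After papain in WT, the type I list had 9 of 32 values higher and 13 lower (median -0.21), with Irf7 lower in 4 of 6 and higher in 1 (median -0.41). The interferon gamma list had 8 of 28 higher and 2 lower (median 0.07), with Socs1 higher in 3 of 5 (median 0.43). Ifng itself could be compared in 3 classes. It was at 341, 186, 529 and 275 CPM in NK-like, 38.2, 37.2, 82.2 and 57.0 CPM in CD8 T-like and 38.8, 12.04, 17.7 and 27.4 CPM in CD4 T-like cells. KO was thus below WT after DPBS in NK-like and CD4 T-like cells, and after papain it was below WT in NK-like and CD8 T-like cells and above it in CD4 T-like cells. Whether these lists share a source with the member values was not tested.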

How the data were processed

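Live CD45.2+ lung cells of 4 libraries, 1 per group, were analysed. The values were deposited by the authors as raw UMI counts per gene and barcode (Cell Ranger and mm10 per the submitters' processing notes, software 3.1.0 in the matrix header), with no normalization. Reads of near-identical genes are not counted by this software. How the authors called cells or treated doublets is not given in the sources used here.

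Barcodes had to hold over 200 genes and less than 15% mitochondrial UMIs, taken from another single-cell experiment of the study. Doublets (275 to 585 a library) were removed with Scrublet in scanpy 1.11.5 at 0.8% per 1000 barcodes, since its own threshold called 0.051% in Papain KO. Cells were aligned and clustered without the members in Seurat 5.3.0 (R 4.3.3), giving 25 clusters, and the T clusters were divided into 18. The scoring rule for cluster names was set after the clusters had been seen.

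Counts were summed by class and library and given as CPM with exact Poisson intervals. Ratios had exact binomial intervals, and the arithmetic was tested on simulated data. Depth was 53854420 to 75675956 UMIs a library. The members and lists were chosen with earlier results of these data known. Beside the members, genes were named if past the fold in the same direction in most classes, together with the 5 most alike to the summed members. Alternatives were no integration, marker gates, doublets kept, no mitochondrial limit, mean CPM per cell, thinning to 2000 UMIs, a denominator without mitochondrial and ribosomal protein genes, TMM factors (edgeR 4.0.16), no UMI minimum, a fold of 0.6, and leaving out dividing clusters. The analysis ran in Python 3.11.15.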

Additional observations from a re-analysis of the deposited data

How the results depend on the processing

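No paired analysis was possible because each group holds 1 library, and for the same reason no replicate could be left out. Of the 41 member values past the fold, 31 of the 36 that could still be compared were past it on the same side with clusters without integration, 32 of 40 with classes gated on markers, 35 of 41 with doublets kept, 37 of 40 without a mitochondrial limit, 31 of 41 with the mean CPM of each cell, 15 of 23 with cells thinned to 2000 UMIs, 38 of 41 with the denominator without mitochondrial and ribosomal protein genes, 29 of 41 with TMM factors and 8 of 41 at a log2 ratio of 0.6.

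For papain against DPBS in WT, the 7 of 85 higher values stood against 16.3% of all genes. They became 4 of 62 with thinned cells (16.1% of all genes), 13 of 100 with no UMI minimum (26.3%) and 3 of 85 at 0.6 (4.83%). Without the Interstitial macrophage-like class they became 3 of 76 (15.4%), and elsewhere they ran from 5 to 10. The 11 lower values (9.06%) became 6 with thinned cells (8.09%), 0 at 0.6 (1.78%) and 7 of 83 without cluster c20 (8.44%). They became 14 with marker gates (9.01%), 8 with TMM factors (9.73%) and 8 with the mean CPM of each cell (9.68%). With no UMI minimum they became 12 of 100 (24.1%), and elsewhere they ran from 9 to 12. For papain against DPBS in KO, the 4 higher values became 1 without integration, 2 with marker gates, 2 with TMM factors, 12 with no UMI minimum and 1 at 0.6, and the 0 lower values became 3 with marker gates, 1 with doublets kept, 2 with the mean CPM of each cell, 1 with thinned cells, 1 with the other denominator, 3 with TMM factors and 4 with no UMI minimum. For KO against WT after DPBS, the 1 of 79 higher value stood against 9.82% of all genes. It became 2 with marker gates (9.82%) and 3 with TMM factors (11.1%). It became 0 without a mitochondrial limit (9.79%), at 0.6 (1.99%) or without the Interstitial macrophage-like class (9.41%). The 9 lower values (9.88%) became 12 of 70 without integration (9.66%), 13 of 76 with marker gates (9.96%) and 11 of 78 without a mitochondrial limit (9.93%). They became 6 of 79 with TMM factors (8.79%), 14 of 100 with no UMI minimum (26.8%) and 0 at 0.6 (1.79%). Elsewhere they ran from 8 to 10. For KO against WT after papain, the 2 higher values became 4 with the mean CPM of each cell, 1 at 0.6 and 0 without the Interstitial macrophage-like class, and the 7 lower values became 4 with thinned cells, 14 with no UMI minimum and 3 at 0.6. The changes at 0.6 follow from the stricter cutoff, with the same values compared. Without a UMI minimum more values were compared. The cause of the other changes was not tested.

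B2m in Neutrophil-like cells changed sign in papain against DPBS in WT without cluster c20, to a log2 ratio of 0.058, and Tap1 in Interstitial macrophage-like cells changed sign in KO against WT after papain with marker gates, to -0.32. The fold of NK-like over Alveolar macrophage-like cells in the summed members, here the mean of the ratios in the 4 libraries, was 2.25, 2.56 with the other denominator and 1.94 with TMM factors. Leaving out the Interstitial macrophage-like class, T cluster t7 or cluster c20 was chosen after seeing the data. Depth limits Nlrc5 most, since in ILC2-like cells of both DPBS libraries it rested on 2 UMIs each.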
